A study of Mus musculus with 4 samples.

Results

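Gene expression was compared between unstimulated mouse 3D engineered muscle collected at 5 h and the same kind of muscle collected at 0 min. The comparison was defined by the array titles and takes 2 of the 4 arrays of the study, 1 array per time. All 4 arrays carried RNA of 3D engineered muscle labelled as mouse skeletal muscle. The study compared muscle at 0 min and at 5 h after 30 min of acute EPS, read here as electrical pulse stimulation (the labels write "electrical plus stimulation"), and used muscle with no acute EPS as the negative control. The groups called unstimulated here therefore received no acute EPS and differ from each other in time alone, as far as the labels say. Strain, cell source, age of the culture, what marks 0 min for muscle that was not stimulated and how many muscles went into each RNA sample are not given in the sources used here. The protocol for labelling speaks of leukocytes, while every title, tissue field and the extraction protocol speak of muscle, and the marker genes given further on were read with this in mind. In bulk RNA, fewer cells of a type and less RNA per cell cannot be told apart.

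Skeletal muscle secretes interleukin-6, chemokines and growth factors, and engineered muscle is used to study which of these signals follow contraction. Comparing unstimulated muscle at these times asks which genes differ with no acute EPS. A pathway central here is that of NRF2 (gene Nfe2l2), a transcription factor held inactive by KEAP1 and released when KEAP1 is modified by oxidants or electrophiles; it binds antioxidant response elements in the genes for glutathione synthesis, quinone reduction, haem breakdown and thioredoxin recycling. Another is the inflammatory secretory program of interleukin-6, CXC chemokines and prostaglandins, in which NF-kB, AP-1 and C/EBP factors act at the promoters and STAT3 passes on the interleukin-6 signal. A further one is the immediate early response, a short burst of transcription factor genes such as Fos and Egr1 that follows almost any disturbance of a cell and then subsides.

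The level of a gene is the log2 of its processed spot intensity minus the array's 75th percentile, so that 0 marks a bright but not extreme spot, and a difference of 1 is 2-fold. A gene counted as measured when its spot was well above background on both unstimulated arrays, which held for 18478 genes. Since each group is a single array, nothing can be said of the spread between cultures and no test could be run; a gene was called at 2-fold, as a rule of size. The error seen within an array, from 270 probes printed 10 times and measured on both arrays, gave an SD of the log2 difference between single spots whose median was 0.08 and whose 95th percentile was 0.33. That error covers printing and scanning and not the spread between cultures. At 5 h, 322 genes (1.74%) were at least 2-fold higher than at 0 min and 547 (2.96%) at least 2-fold lower, and the median difference over all measured genes was -0.02. Differences of 4-fold or more were reached by 51 genes upwards and 53 downwards. With arrays centred on their median in place of the 75th percentile, the calls were 470 higher and 388 lower. Bright genes made up more of the higher than of the lower calls: above the upper quartile of the level (1.78) 53 were called higher and 27 lower, and below the lower quartile (-3.0) 110 and 295.

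The other pair of arrays, 5 h and 0 min after EPS, shares no array with the unstimulated pair. Its values are given beside those of the unstimulated muscle for many genes and lists, though not for all. In that pair 442 of 18460 genes (2.39%) were called higher and 673 (3.65%) lower. Over the 18099 genes measured on all 4 arrays, both 5 h arrays lay above both 0 min arrays for 5198 (28.7%) and below them for 6853 (37.9%). These shares are the background for statements below on whole gene lists. For single genes named for a large unstimulated difference they are not, since that choice fixes part of the outcome. Among genes called higher without EPS 92.0% lay above in this way, and among those called lower 92.8% lay below.

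Promoter sequences are shown first for the higher genes whose 250 bases before the start site hold a short motif of one of these pathways, together with a lower immediate early gene. They are RefSeq promoters on GRCm38.p6, all on the plus strand, printed 5′ to 3′ and ending at the base before the start site. Capitals mark the matches, which are descriptions of letters and not binding sites.
Srxn1 (sulfiredoxin; AP-1 site TGANTCA; chr2:152105274-152105523): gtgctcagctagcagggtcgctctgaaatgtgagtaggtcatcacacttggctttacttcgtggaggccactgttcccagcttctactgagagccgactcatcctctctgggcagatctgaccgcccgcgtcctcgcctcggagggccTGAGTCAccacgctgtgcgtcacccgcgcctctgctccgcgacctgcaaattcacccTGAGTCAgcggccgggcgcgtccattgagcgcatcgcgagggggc
Prdx1 (peroxiredoxin; AP-1 site; chr4:116685349-116685598): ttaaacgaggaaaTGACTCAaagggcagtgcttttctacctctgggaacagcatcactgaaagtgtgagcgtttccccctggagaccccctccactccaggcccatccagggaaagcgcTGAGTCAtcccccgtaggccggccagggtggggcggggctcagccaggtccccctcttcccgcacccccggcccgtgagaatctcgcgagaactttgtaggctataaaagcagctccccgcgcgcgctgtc
Gclm (modifier subunit of glutamate-cysteine ligase; antioxidant response element core TGACNNNGC, here on the opposite strand; chr3:122245307-122245556): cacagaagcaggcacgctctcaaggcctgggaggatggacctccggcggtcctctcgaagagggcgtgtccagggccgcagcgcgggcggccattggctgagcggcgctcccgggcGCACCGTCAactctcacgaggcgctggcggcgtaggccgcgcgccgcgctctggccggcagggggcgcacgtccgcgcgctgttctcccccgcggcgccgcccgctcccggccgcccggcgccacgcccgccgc
Il6 (interleukin-6; NF-kB site; chr5:30012864-30013113): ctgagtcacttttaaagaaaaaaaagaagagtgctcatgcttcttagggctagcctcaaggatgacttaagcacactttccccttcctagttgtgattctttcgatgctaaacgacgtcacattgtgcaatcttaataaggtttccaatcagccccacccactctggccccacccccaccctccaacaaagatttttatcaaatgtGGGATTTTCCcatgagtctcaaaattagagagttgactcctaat
Cxcl1 (a CXC chemokine; NF-kB sites; chr5:90890995-90891244): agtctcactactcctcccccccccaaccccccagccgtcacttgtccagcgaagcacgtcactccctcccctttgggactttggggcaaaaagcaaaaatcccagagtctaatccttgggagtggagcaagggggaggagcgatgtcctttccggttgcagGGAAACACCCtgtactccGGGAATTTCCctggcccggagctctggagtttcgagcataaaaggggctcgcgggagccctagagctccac
Areg (amphiregulin; cAMP response element TGACGTCA; chr5:91139349-91139598): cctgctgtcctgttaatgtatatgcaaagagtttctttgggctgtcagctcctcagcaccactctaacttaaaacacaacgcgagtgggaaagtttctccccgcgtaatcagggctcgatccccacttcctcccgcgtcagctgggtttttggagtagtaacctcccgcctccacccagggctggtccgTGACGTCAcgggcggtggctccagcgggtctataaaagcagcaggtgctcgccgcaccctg
Egr2 (an early growth response factor; CArG box; chr10:67537316-67537565): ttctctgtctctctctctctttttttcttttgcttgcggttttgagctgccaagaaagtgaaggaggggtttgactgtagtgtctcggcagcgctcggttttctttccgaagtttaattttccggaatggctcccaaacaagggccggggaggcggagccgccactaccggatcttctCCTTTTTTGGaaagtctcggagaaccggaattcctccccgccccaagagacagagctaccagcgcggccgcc
Counted from the start site, the matches of Srxn1 began at -102 and -45, that of Il6 at -44 and that of Areg at -61. Cxcl1 held matches on both strands, at -89 and -71. The NF-kB motif searched was 3 G, any 2 bases, 3 T and 2 C, and all motifs were searched on both strands. AP-1 sites can overlap the antioxidant response element core.

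How common these letters are bears on how far they describe the genes. Among 32851 promoter windows of this length, 10.2% held the antioxidant response element core, 6.75% an AP-1 site, 1.55% a cAMP response element, 1.41% the NF-kB site and 1.47% a CArG box. Of the 12 antioxidant genes called higher, 7 had a promoter in the table; Gclm, Prdx1 and Txnrd1 held the antioxidant core and Prdx1 and Srxn1 an AP-1 site. Of 22 inflammatory, prostaglandin and EGF family genes called higher, 18 had a promoter: Il6, Cxcl1 and Csf1 held the NF-kB site, Il6, Il11 and Lif an AP-1 site, Areg the cAMP response element and Il1rl1, Lif and Ptgir the antioxidant core. Of 6 immediate early genes called lower, 5 had a promoter, and a CArG box and the antioxidant core were found in Egr2.

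Genes of glutathione synthesis and of the thioredoxin system were higher at 5 h in muscle that had received no acute EPS. Of 29 antioxidant genes, all measured, 12 were at least 2-fold higher and 0 lower, against 1.74% and 2.96% of all measured genes, and the median of the list was 0.61 against -0.02. The same list had 10 genes called higher in the EPS pair, against 2.39% of all genes there. All 10 were among the 12, and the median of the list in that pair was 0.34. For 20 of the 29 both 5 h arrays lay above both 0 min arrays, against 28.7% of all genes. The list was drawn up with these results known, so its count is a description.

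Cystine uptake came first by size. Slc7a11, the cystine importer that feeds glutathione synthesis (probe at chr3:50169700-50169759, mm9), was at -5.37 on the unstimulated 0 min array and -1.05 at 5 h, and at -4.56 and -0.72 after EPS. The difference without EPS was 4.32, or 19.9-fold, from a dim spot at 0 min, and both 5 h arrays lay far above both 0 min arrays. The enzyme that joins cysteine to glutamate has a catalytic subunit, Gclc, and a modifier, Gclm. Gclc was at 1.42 and 3.18 without EPS and at 1.58 and 2.81 with EPS, a 3.37-fold difference in the unstimulated muscle. Gclm was at -2.24 and 0.67, then -2.15 and 0.27, 7.52-fold higher at 5 h without EPS. Gsr, which regenerates reduced glutathione, was at 1.57 and 3.05 without EPS, 2.79-fold higher, and at 1.71 and 2.81 with EPS. The 0 min values of Gclc, Gclm and Gsr lay close together, and for all 4 genes both 5 h arrays were above both 0 min arrays.

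Glutathione-using enzymes differed among themselves. Gsta1, an alpha-class glutathione transferase, was at 1.82 and 4.65 without EPS, 7.07-fold higher, and at 1.95 and 4.07 with EPS. Its near-identical relative Gsta2, taken from a list added after values were seen, was 6.57-fold higher, and because the sequences are close the probes may share signal. Gsta4, which clears lipid aldehydes, was at 0.92 and 2.73, 3.50-fold higher. Gstp1 reached a difference of 0.77, short of 2-fold, Gstm1 was at -0.05 and Gsta3 at 0.40. The glutathione peroxidases Gpx1, Gpx3 and Gpx4 had differences of -0.10, -0.23 and 0.05. Gsta1, Gsta2 and Gsta4 were thus called, while Gsta3 and these peroxidases were not.

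The thioredoxin arm followed the same order of times. Srxn1, which repairs over-oxidised peroxiredoxins and whose promoter is shown above, was at 2.61 and 5.49 without EPS and at 2.85 and 5.16 with EPS, 7.32-fold higher in the unstimulated muscle. Txnrd1, the reductase that recharges thioredoxin, was at 3.1 and 5.05 without EPS, 3.88-fold higher, and at 3.28 and 4.97 with EPS. The peroxiredoxins Prdx1 and Prdx6 were 2.23-fold and 2.41-fold higher; their differences in the EPS pair were 0.92 and 0.88, just under the rule. Txn1 itself differed by 0.61, and Txnip, its inhibitor, by -0.35.

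Haem and quinone enzymes completed the called genes. Hmox1, which breaks down haem and is also driven by HIF and other stress factors, was at 3.1 on the unstimulated 0 min array and 6.4 at 5 h, with processed signals of 11653 and 107830. It was 9.85-fold higher without EPS and 6.24-fold higher with EPS (3.38 and 6.02), and its other measured probe gave 3.24 against 3.30 for the one used. Nqo1, a quinone reductase often used as the reference target of NRF2, was at -1.87 and 1.15 without EPS, 8.13-fold higher, and 8.16-fold higher with EPS, at -2.19 and 0.84. The pairs thus gave nearly the same fold for Nqo1 and a larger one without EPS for Hmox1.

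**Figure D1:**
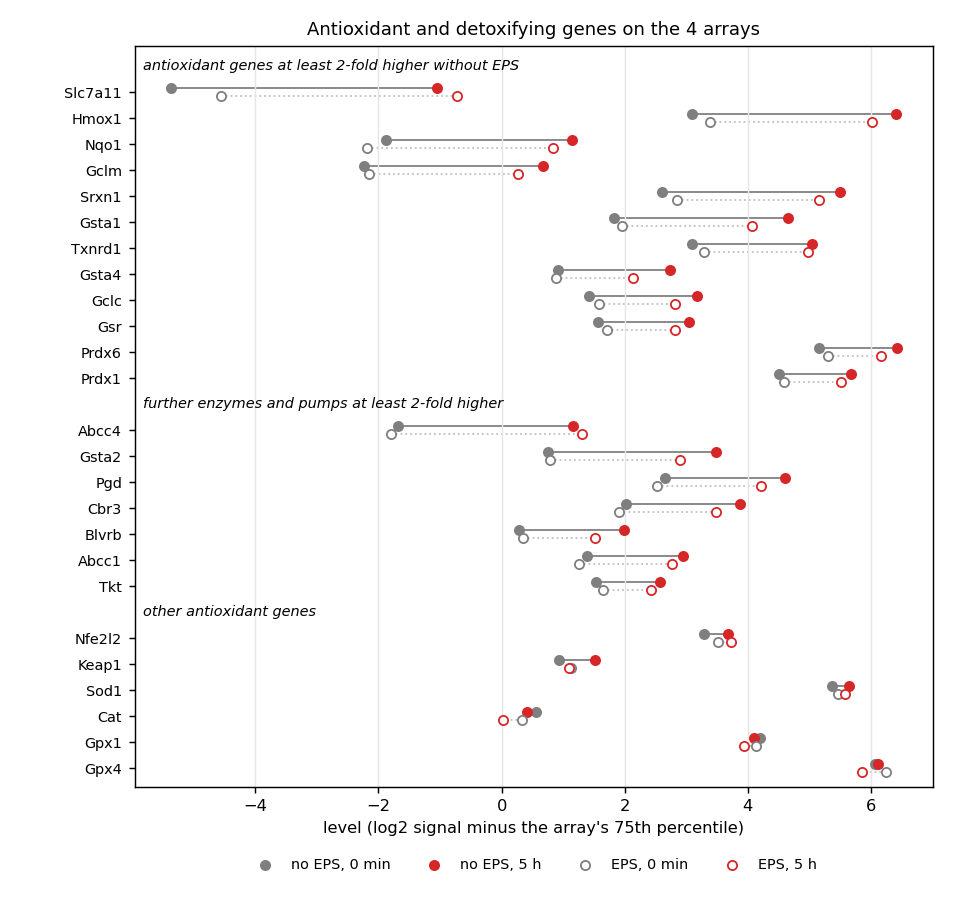
Level (log2 signal minus the array's 75th percentile, horizontal axis) of antioxidant and detoxifying genes on the 4 arrays, 1 point per array: filled for no EPS, open for EPS, grey at 0 min and red at 5 h, with a line joining the times of a pair. The red points lie to the right of the grey ones for all 12 called antioxidant genes and the 7 further genes, while Cat, Gpx1 and Gpx4 lie close together.

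The regulators of this pathway differed little on the transcript level. Nfe2l2 was at 3.28 and 3.67 without EPS and 3.52 and 3.73 with EPS, a difference of 0.38. Keap1 differed by 0.58 without EPS and by -0.02 with EPS. Sod1, Sod2 and Cat, enzymes that remove superoxide and hydrogen peroxide, differed by 0.27, 0.61 and -0.14. None of these reached 2-fold.

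A list of 15 further measured enzymes and pumps of the same kind, added after values were seen, held 7 genes called higher and 0 lower. The shares over all measured genes were 1.74% and 2.96%, and the median of the list was 0.87. Abcc4 and Abcc1, pumps that export conjugates from the cell, were 7.17-fold and 2.96-fold higher. Pgd, an NADPH-producing enzyme of the pentose phosphate pathway, was at 2.66 and 4.60 without EPS, 3.83-fold higher, and at 2.52 and 4.22 with EPS. Tkt, of the same pathway, was 2.07-fold higher, and Gsta2 is given above. Cbr3 and Blvrb, which reduce carbonyls and biliverdin, were 3.61-fold and 3.24-fold higher. Cbr1, Ephx1 and Akr1b8, which also detoxify, differed by 0.07, 0.08 and 0.01. Of these 7 genes 6 were called higher in the EPS pair too, where 2.39% of all genes were. Tkt was the other one, with 0.78. G6pdx, the first enzyme of the pentose phosphate pathway and a member of the glucose list, was 2.87-fold higher.

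The aryl hydrocarbon receptor, a sensor of ring-shaped ligands, gave a divided picture. Ahr was at 1.0 and 3.09 without EPS, 4.25-fold higher, and at 1.29 and 2.64 with EPS. Its target Cyp1a1 was at -3.55 and -0.57, 7.92-fold higher, and at -3.0 and -0.66 with EPS. Aldh3a1 was 2.53-fold higher. Cyp1b1 went the other way, from 2.08 to 0.64, 2.72-fold lower, and Tiparp and Ahrr differed by -0.04 and 0.09. Of 8 measured genes in this list, also added after values were seen, 3 were called higher and 1 lower, with a median of 0.05. Over all measured genes the shares were 1.74% and 2.96%.

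Proteasome genes, some of which respond to NRF1 and NRF2, differed by a small amount in the same direction. Of 28 measured, 0 were called, against 1.74% higher and 2.96% lower of all measured genes. Yet 27 lay above 0, with a median of 0.26 and a range from -0.01 to 0.97. Psmd11 was at 1.96 and 2.93 without EPS and at 2.10 and 2.79 with EPS. Both 5 h arrays lay above both 0 min arrays for 24 of the 28, against 28.7% of all genes. Most of these differences lie under 0.33, where the spot SD had its 95th percentile, and the EPS pair had a median of 0.12.

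Interleukin-6 had the highest difference of any measured gene. Il6 (probe at chr5:30346367-30346426, mm9) was at -1.13 on the unstimulated 0 min array and 4.82 at 5 h, with processed signals of 622.9 and 36218, and at 0.12 and 5.80 after EPS. It was 61.9-fold higher at 5 h without EPS and 51.5-fold higher with EPS. Both 5 h arrays were far above both 0 min arrays, and each level was higher on the EPS side.

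The interleukin-6 family had 23 measured genes, of which 7 were called higher and 1 lower, against 1.74% and 2.96% of all measured genes, with a median of 0.26. Among the ligands 4 of 7 measured were called higher, all 4 in both pairs, as were 193 of the 18099 genes measured on all arrays. Clcf1, a ligand of the CNTF receptor, was at -1.16 and 0.49 without EPS and at -0.87 and 1.31 with EPS, a difference of 1.65. Il11 was at -3.35 and -2.32 without EPS, 2.03-fold higher, and at -2.96 and 0.20 with EPS. Lif was at -4.32 and -3.26 without EPS and at -4.20 and -0.79 with EPS. For both the unstimulated difference was close to the rule and the EPS pair differed by far more.

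Of the receptor, signalling and feedback genes Osmr, Socs3 and Stat3 had the larger difference without EPS, while others, such as Socs1 (-0.86 without EPS, -1.17 with EPS) and Socs2 (0.31 and 0.83), did not. Osmr, the oncostatin M receptor, was at 2.25 and 3.47 without EPS, 2.34-fold higher, with a difference of 0.52 in the EPS pair. Socs3, the inhibitor induced by STAT3, was at 2.42 and 3.77 without EPS, 2.54-fold higher, and at 2.91 and 3.00 with EPS. Stat3 was 2.09-fold higher without EPS, at 3.23 and 4.29, and differed by 0.36 with EPS. Lifr, the receptor shared by Lif and related ligands, was lower, at 0.85 and -0.39 without EPS and at 0.66 and -0.41 with EPS, though its probes did not all reach 2-fold. Il6st, the common signalling chain, differed by 0.34.

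Cebpd, a C/EBP factor gene induced through STAT3, was at 2.11 and 4.93 without EPS and at 2.89 and 3.92 with EPS. It was 7.03-fold higher without EPS and 2.05-fold higher with EPS. The highest of the 4 levels was that of the unstimulated 5 h array. Bcl3, a nuclear partner of NF-kB, had the same order, at 0.08 and 2.47 against 0.43 and 1.59, a difference of 2.39 without EPS and 1.16 with EPS.

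Neutrophil-attracting chemokines were higher and Cxcl12 lower. Of 48 chemokine genes 24 were measured, and 2 were called higher and 1 lower, against 1.74% and 2.96% of all measured genes. The median of -0.05 lay near that of all genes. Cxcl5 was at -1.31 and 2.48 without EPS, 13.8-fold higher, and at -1.02 and 4.44 with EPS, 44.2-fold. Cxcl1 was at -0.98 and 1.71 without EPS, 6.43-fold higher, and at -0.03 and 3.51 with EPS. Cxcl12, which holds stem and blood cells in place through CXCR4, was at 3.63 and 1.62 without EPS, 4.02-fold lower, and at 3.72 and 0.57 with EPS. Ccl2 differed by 0.17 without EPS and by 1.03 with EPS, and 0 of 11 measured CC chemokines were called without EPS.

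Of 39 acute phase and innate defence genes 5 were called higher and 2 lower, against 1.74% and 2.96% of all measured genes, with a median of 0.02. Ptx3, a soluble pattern-recognition protein, was at -4.95 and -0.75 without EPS, 18.4-fold higher, and at -3.95 and -0.09 with EPS. Slpi, an inhibitor of neutrophil elastase, was at -1.07 and 2.31, 10.4-fold higher, and at -0.67 and 3.25 with EPS. Cd14, a co-receptor for endotoxin, was 2.30-fold higher, and S100a8 and the interleukin-33 receptor gene Il1rl1 were 2.20-fold and 2.23-fold higher from dim spots. With EPS, Cd14, S100a8 and Il1rl1 were 3.98-fold, 9.15-fold and 11.7-fold higher. Of 28 NF-kB genes 3 were called higher and 0 lower, with a median of 0.12. These were Bcl3, Csf1 (3.39-fold) and Gch1 (2.55-fold), whereas Nfkbia, the inhibitor whose transcription follows NF-kB closely, differed by -0.50.

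Of 15 measured prostaglandin genes 3 were called higher and 1 lower, against 1.74% and 2.96% of all measured genes, with a median of 0.02. Ptgs2, the inducible cyclooxygenase, was at 0.59 and 3.70 without EPS, 8.67-fold higher, and at 1.82 and 4.85 with EPS, 8.12-fold. Pla2g4a, the phospholipase that frees arachidonic acid, was at -0.88 and 1.43 without EPS, 4.94-fold higher, and at -0.75 and 1.99 with EPS. Hpgd, which inactivates prostaglandins, was at -3.59 and -4.99 without EPS and at -3.77 and -5.73 with EPS. Ptgir, the prostacyclin receptor, was at -3.24 and -1.26 without EPS, 3.93-fold higher. The times did not overlap for any of the 4. The synthases Ptges, Ptgis and Ptgds did not reach 2-fold and differed by 0.02, -0.34 and -0.37.

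EGF family ligands and an activin subunit belonged to the same set of higher genes. Ereg, which codes for epiregulin, was at -0.27 and 2.93 without EPS, 9.23-fold higher, and at 0.30 and 4.15 with EPS. Areg (amphiregulin, with the cAMP response element shown above) was at -3.46 and -0.86 without EPS, 6.07-fold higher, and at -2.96 and -0.02 with EPS. Hbegf differed by 0.01 and the receptor Egfr by 0.55. Inhba, the subunit of activin A, was at 1.86 and 3.80 without EPS, 3.83-fold higher, and at 2.53 and 5.56 with EPS, while Fst, which codes for its binding protein follistatin, was 2.23-fold lower, at 4.50 and 3.34. Fgf7 and Fgf10, ligands for epithelial FGF receptors, were 2.93-fold and 2.27-fold higher. Of 12 measured EGF family genes 2 were called higher and 0 lower, against 1.74% and 2.96% of all measured genes.

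**Figure D2:**
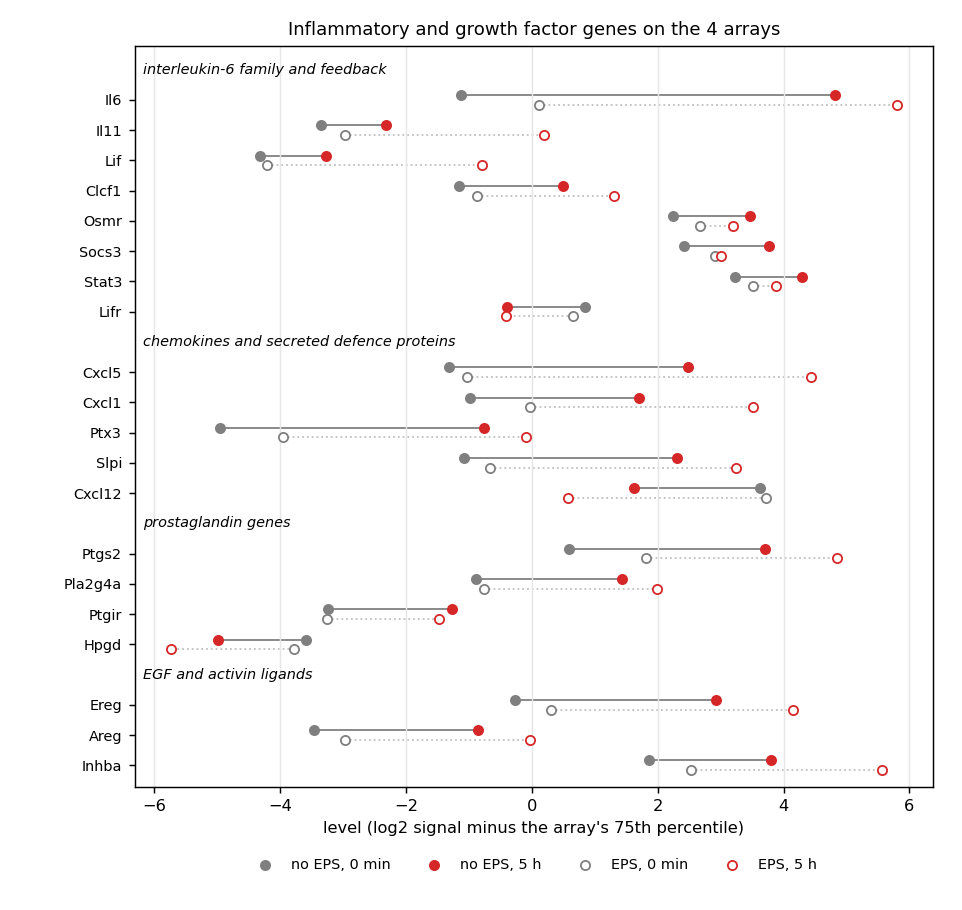
Level (log2 signal minus the array's 75th percentile, horizontal axis) of inflammatory and growth factor genes on the 4 arrays, 1 point per array: filled for no EPS, open for EPS, grey at 0 min and red at 5 h. For Il11 and Lif the open red point stands far to the right of the other points, while for Osmr, Socs3 and Stat3 the filled red point is the highest.

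Further genes among the highest were Npy1r and Prg4. Npy1r, a receptor for neuropeptide Y, was at -2.28 and 1.74 without EPS, 16.1-fold higher, and at -0.98 and 1.92 with EPS, 7.50-fold. Of the 26 measured neuropeptide genes 3 were called higher and 1 lower, against 1.74% and 2.96% of all measured genes, with a median of -0.12. Prg4, the lubricant of joint surfaces, was at -1.34 and 2.0, 10.1-fold higher, and at -0.86 and 3.32 with EPS. Both 5 h arrays lay above both 0 min arrays for both genes.

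Immediate early genes split into lower and higher members. Of 50 measured, 6 were called lower and 4 higher, against 2.96% and 1.74% of all measured genes, with a median of -0.01. Egr1 was at 4.58 on the unstimulated 0 min array and 1.70 at 5 h, 7.39-fold lower, and at 4.90 and 1.43 with EPS. Egr2 was at 2.32 and -0.23 without EPS, 5.86-fold lower, and at 3.33 and 0.21 with EPS. Fos was at 0.16 and -1.93 without EPS, 4.26-fold lower, and at 1.40 and -1.84 with EPS, 9.46-fold. Fosb, Dusp2 and Klf2 differed by -1.46, -1.27 and -1.07. For these 6 genes the 0 min level after EPS lay above the unstimulated one, and the 5 h levels lay below both.

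The higher members were Fosl1, Nr4a2, Cebpd and Rgs2. Fosl1, an AP-1 partner, was at -0.70 and 1.26 without EPS, 3.90-fold higher, and at -0.54 and 1.33 with EPS. Nr4a2, an orphan nuclear receptor, was at -0.74 and 2.17 without EPS, 7.47-fold higher, and at 1.28 and 3.11 with EPS. Cebpd is described above, and Rgs2, an inhibitor of Gq signalling, differed by 1.32, and by 0.48 in the EPS pair. In the EPS pair 15 of the 50 genes were called lower and 4 higher, with a median of -0.41. The shares over all genes in that pair were 3.65% and 2.39%. In both pairs 6 lower and 3 higher genes were called, against 294 and 193 of the 18099 genes measured on all arrays.

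The Notch targets Heyl and Hes1 and the ligand gene Dll1 were lower at 5 h by similar amounts in both pairs. Heyl (probe at chr4:122926975-122927034, mm9), a repressor driven by Notch, was at -1.23 and -5.33 without EPS and at -1.14 and -5.23 with EPS, 17.1-fold lower in the unstimulated muscle. Its 5 h spots were dim, with processed signals of 31.83 without EPS and 39.78 with EPS, which limits the precision of that fold. Hes1 was at -1.81 and -3.63 without EPS, 3.52-fold lower, and at -1.94 and -3.69 with EPS. The ligand Dll1 was at -1.53 and -3.26 without EPS, 3.30-fold lower, and at -1.43 and -3.40 with EPS. For all 3 genes the arrays of the same time lay close together. Hey1 and Hes6, also of the HES and HEY family, differed by -0.55 and -0.45, and the receptors Notch1 and Notch3 and the ligand Jag1 by 0.02, 0.08 and -0.10.

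Of 26 measured Notch and Wnt genes 5 were called lower and 0 higher, against 2.96% and 1.74% of all measured genes. All 5 were called lower in both pairs, as were 294 of the 18099 genes measured on all arrays. The median of the list was -0.41. The other two were Wnt9a and Rspo3, which differed by -1.21 and -1.15. Above 0 lay 5 of the 26, against 47.5% of all measured genes. For 16 of them both 5 h arrays lay below both 0 min arrays, against 37.9% of all genes.

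Of 34 measured TGF-beta, activin and BMP genes 7 were called lower and 3 higher, against 2.96% and 1.74% of all measured genes, with a median of -0.15. Smad6, an inhibitor transcribed in response to BMP, was at -1.69 and -3.44 without EPS, 3.35-fold lower, and at -1.48 and -3.54 with EPS. Bmp4 was at 2.57 and 1.24 without EPS, 2.53-fold lower, and at 2.55 and 0.95 with EPS. Id3, a direct BMP target that holds back differentiation, was at 2.21 and 1.06 without EPS and at 3.02 and 0.84 with EPS. Id1, another such target, differed by -0.16, and Bmp2, Bmp6 and Smad7 by -0.55, 0.52 and 0.28, short of 2-fold.

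Of 27 measured matricellular and YAP target genes 2 were called lower and 1 higher, against 2.96% and 1.74% of all measured genes. The lower ones were Ccn1 and Ccn2, which code for secreted matrix proteins. Ccn1 was at 3.40 and 1.62 without EPS, 3.44-fold lower, and at 4.74 and 1.86 with EPS. Ccn2 was at 4.19 and 2.35, 3.57-fold lower, and at 4.86 and 3.30 with EPS. Both had their highest level on the stimulated 0 min array. The higher one was the hyaluronan synthase gene Has1 (2.68-fold). Pdgfrb, a receptor of fibroblasts and pericytes, was at 2.84 and 1.07 without EPS and at 2.63 and 0.20 with EPS, 3.41-fold lower, and Angpt2 was 4.38-fold lower from dim spots.

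Some metabolic and clock regulators were called. Ppargc1a, the coactivator of mitochondrial genes, was at -1.0 and -2.81 without EPS, 3.51-fold lower, and at -1.53 and -3.32 with EPS. Of 26 measured mitochondrial enzymes and carriers 0 were called, against 1.74% higher and 2.96% lower of all measured genes. Their median was -0.08. Ppard, a receptor for fatty acids, was 2.53-fold higher, at 0.72 and 2.06. Dbp, an output gene of the circadian clock, was at 1.86 and 0.08 without EPS, 3.42-fold lower, and at 1.94 and -0.20 with EPS. Per3, Nr1d1 and Nfil3 differed by -1.20, -1.09 and 1.02, whereas Arntl differed by 0.30. Of 19 measured circadian clock genes 3 were called lower and 1 higher, against 2.96% and 1.74% of all measured genes. Their median was -0.24. In both pairs 1 was called lower, against 294 of the 18099 genes measured on all arrays. With another background correction (normexp) Per3 and Nr1d1 differed by -0.42 and -0.95, under 2-fold. Slc2a1, which codes for the glucose carrier GLUT1, was 2.27-fold higher.

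Among lower genes outside these pathways were Gprin3, Ranbp3l, Nefl and Pid1. Gprin3, which binds G proteins, was at -1.17 and -4.58 without EPS, 10.6-fold lower, and at -2.0 and -5.11 with EPS. Ranbp3l, a nuclear exporter of SMAD proteins, was at -0.82 and -3.85 without EPS, 8.18-fold lower, and at -1.06 and -5.39 with EPS. Pid1, an adaptor of insulin and LRP1 signalling, was at 0.46 and -2.20 without EPS, 6.31-fold lower, and at 0.22 and -2.40 with EPS. For Gprin3, Ranbp3l and Pid1 the times did not overlap. Nefl, a neurofilament gene, was at -1.48 and -4.49 without EPS, 8.06-fold lower. With EPS it went the other way, at -7.9 and -4.78, though the 0 min spot there was not well above background. The unstimulated 0 min array alone was thus high for Nefl. Dhrs3, a retinaldehyde reductase, was 4.33-fold lower, at 3.44 and 1.33.

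**Figure D3:**
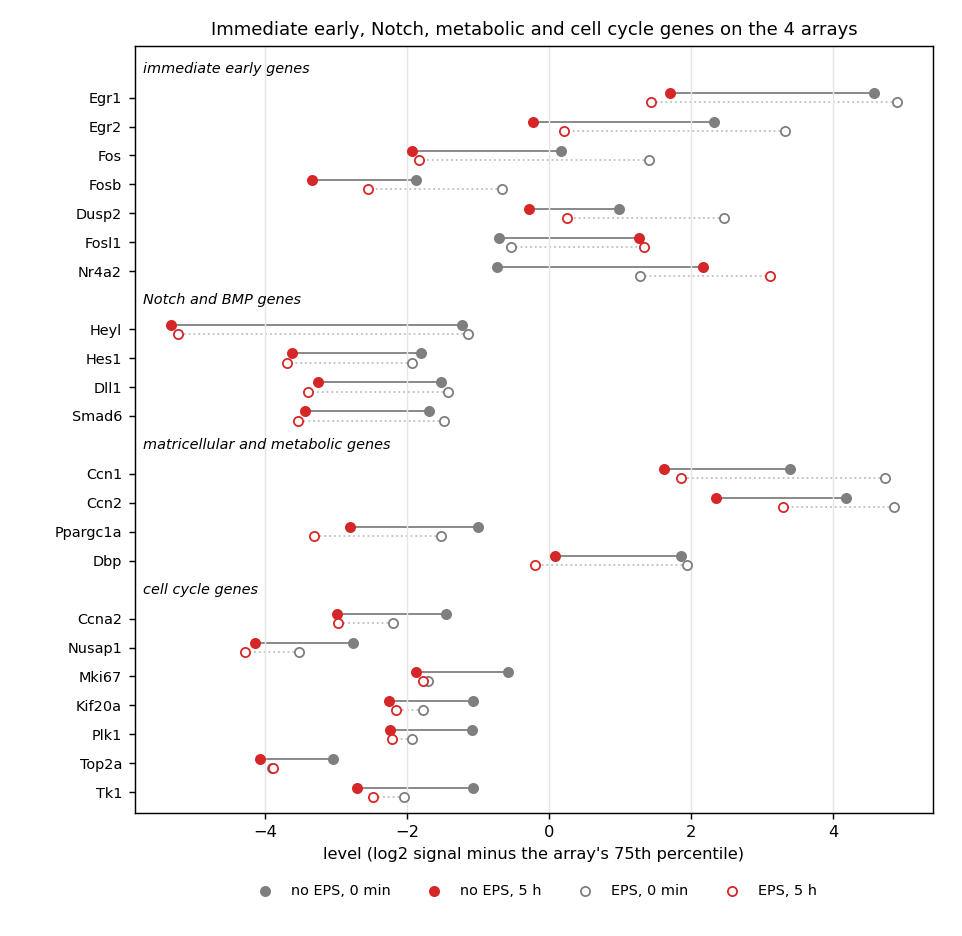
Level (log2 signal minus the array's 75th percentile, horizontal axis) of immediate early, Notch, BMP, matricellular, metabolic and cell cycle genes on the 4 arrays, 1 point per array: filled for no EPS, open for EPS, grey at 0 min and red at 5 h. Heyl, Hes1 and Dll1 show the same shift in both pairs, while for the cell cycle genes the filled grey point, no EPS at 0 min, lies to the right of the other points.

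Cell cycle genes gave calls in the unstimulated pair and none in the EPS pair, a difference that was not tested. Of 50 measured, 10 were called lower and 0 higher without EPS, against 2.96% and 1.74% of all measured genes, with a median of -0.46. With EPS 0 were called, against 3.65% lower and 2.39% higher, and the median was -0.11. All 22 measured mitotic genes lay below 0 without EPS, 8 of them at 2-fold, with a median of -0.96 against -0.11 with EPS. Many of these spots were dim, the median level of the mitotic genes being -2.1. With normexp background correction Plk1, Prc1, Nusap1, Top2a and Nuf2 fell under 2-fold. Their unstimulated differences were then -0.97, -0.98, -0.86, -0.54 and -0.53. Ccna2, the cyclin of S phase and early mitosis, was at -1.46 and -2.99 without EPS, 2.89-fold lower, and at -2.20 and -2.97 with EPS. Mki67, a marker of cycling cells, was at -0.58 and -1.88 without EPS and at -1.71 and -1.78 with EPS. Top2a, which untangles chromosomes, was at -3.04 and -4.08 without EPS and at -3.91 and -3.89 with EPS. Tk1, which makes thymidine phosphate in S phase, was at -1.07 and -2.71 against -2.05 and -2.48. In each of these genes the unstimulated 0 min array had the highest level. Both 5 h arrays nonetheless lay below both 0 min arrays for 13 of the 21 mitotic genes measured on all arrays, against 37.9% of all genes, and Ccna2 also differed by -0.78 with EPS. What sets the unstimulated 0 min array apart was not tested.

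Single unstimulated arrays stood apart in a limited set of genes. Of 500 genes called lower and measured on all arrays, 41 had the unstimulated 0 min level at least 2-fold above each other array while the others lay within 2-fold of each other, Mki67, Pimreg and H1f5 among them. Of 301 called higher, 8 had the unstimulated 0 min array 2-fold below the others, among them Ppp5c and Nelfe, whose values are given further on. The unstimulated 5 h array stood apart in the same way for 11 of the 301 and 4 of the 500. Pax7, the satellite cell factor, was 2.47-fold lower without EPS from dim spots, at -4.36 and -5.66, and at -5.04 and -5.64 with EPS. With normexp background correction its unstimulated difference was -0.48, under 2-fold.

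Muscle structure genes differed by small amounts, most of them downwards. Of 49 measured sarcomere genes 0 were called, against 1.74% higher and 2.96% lower of all measured genes. Their median was -0.18, their range was from -0.94 to 0.31, and 34 lay below 0. Acta1, skeletal actin, was at 7.14 and 6.97 without EPS and at 7.37 and 7.01 with EPS, and Myh3, embryonic myosin, at 6.03 and 5.70 without EPS. The differentiation factor Myog was at 5.19 and 5.38. Of 35 excitability genes and 19 collagens 0 were called, with medians of -0.19 and -0.36. Both 5 h arrays lay below both 0 min arrays for 32 of the 49 sarcomere genes and 14 of the 19 collagens. The same held for 25 of the 34 excitability genes measured on all arrays, against 37.9% of all genes. When arrays were centred on their median in place of the 75th percentile every difference was 0.13 higher, which leaves the sarcomere and excitability medians at -0.05. Their distance from 0 thus depends on the scaling. The median of all measured genes moved along, from -0.02 to 0.11, and these list medians lay below it under both scalings.

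Stress programs other than the antioxidant one differed among themselves in calls. Over all measured genes 1.74% were called higher and 2.96% lower. Of 31 heat shock genes and 24 chaperones of the endoplasmic reticulum 0 were called, with medians of 0.15 and 0.02. With EPS their medians were -0.06 and 0.58. In that pair 1 heat shock gene was called lower and 3 chaperones of the endoplasmic reticulum higher. The shares over all genes there were 3.65% lower and 2.39% higher. Dnajb1, a heat shock co-chaperone, was at 4.21 and 4.28 without EPS and at 6.01 and 4.33 with EPS, so that only the stimulated 0 min array was high. Of 26 integrated stress response genes 1 was called, Slc7a11 described above, and Atf4, Ddit3 and Chac1 differed by -0.11, -0.44 and -0.57. Of 37 hypoxia and HIF genes 3 were called higher (Hmox1, Slc2a1 and Stc2) and 1 lower (Selenbp1), while Vegfa and Egln3 differed by 0.14 and 0.17. Of 20 p53 target genes 0 were called higher and 3 lower, with a median of -0.14. Reference genes were near 0: of 18, 0 were called, with a median of 0.07, which was -0.02 when a gene's probes were averaged.

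**Figure D4:**
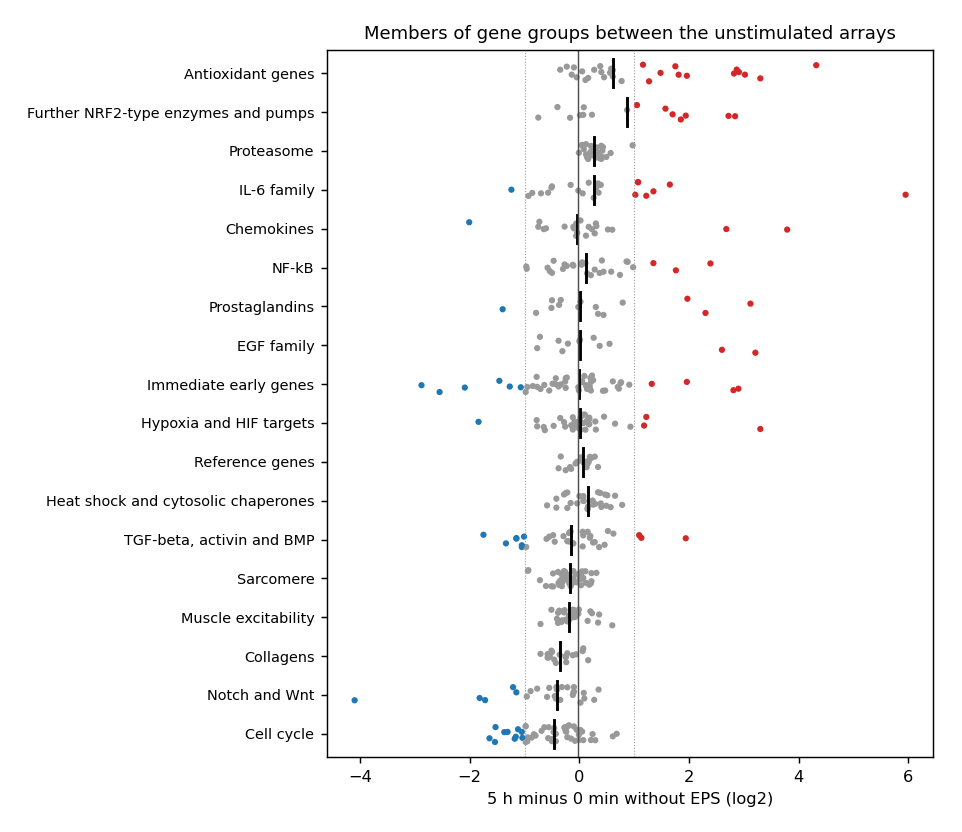
Difference between the unstimulated arrays (5 h minus 0 min, log2, horizontal axis) for the measured members of gene groups, 1 point per gene, red at 2-fold higher and blue at 2-fold lower, with a black bar at the group's median and a thin line at the median of all measured genes. The antioxidant groups lie to the right with 12 and 7 red points, proteasome genes form a narrow band just right of 0, and cell cycle and Notch genes extend to the left.

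Markers of muscle fibres and of fibroblasts were measured on all 4 arrays. All 12 skeletal muscle fibre markers were measured, and the sum of their levels taken back to the linear scale was 788 and 751 without EPS and 924 and 690 with EPS, in units of the 75th percentile. Of 12 fibroblast markers 10 were measured, with sums of 291, 275, 326 and 238 in the same order; Thy1 and Tcf21 were not well above background. Smooth muscle and pericyte markers summed to 87.5, 55.7, 87.9 and 51.6, with Myh11, Rgs5 and Kcnj8 not above background on any array. Each of these sums, for fibres, fibroblasts and smooth muscle, was lower at 5 h in both pairs.

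Blood cell markers bear on the inflammatory genes and on the word leukocyte in the labelling protocol. Of 14 markers of macrophages and other leukocytes 7 were measured, with Cd14 called higher (1.20) and Cd68 lower (-1.84). Ptprc, Lyz2, Tyrobp, Laptm5 and Cd52 stayed below the background limit on all 4 arrays. The summed level was 9.55 and 9.61 without EPS and 8.94 and 10.8 with EPS. Of 10 neutrophil markers Cxcr2, Mpo, Ngp and Mmp8 were below that limit on every array, and the sums were 46.7, 48.0, 44.9 and 46.1, most of it the spot of Csf3r at levels of 5.45 to 5.55. Adipocyte markers summed to at most 0.989 with Adipoq not above background, and endothelial markers to at most 4.31 with Cdh5 not above background.

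The unstimulated change was largely matched in the pair that had received EPS. Of 301 genes called higher without EPS and measured on all arrays, 193 were called higher with EPS, which is 64.1% of the unstimulated list and 45.8% of the 421 in the EPS list. Of 500 called lower, 294 were called lower with EPS, 58.8% and 45.4% of the 2 lists. The sign was shared by 283 of the 301 and 472 of the 500. Both 5 h arrays lay above both 0 min arrays for 277 of the 301 (92.0%) and below them for 464 of the 500 (92.8%), against 28.7% and 37.9% of all genes, though the choice of genes by the unstimulated difference fixes part of this. Across the 18099 genes the differences had a Pearson r of 0.78 and a Spearman rho of 0.75. Genes are not independent replicates, and all 4 arrays lay on 1 slide. The r was 0.61 for genes below the lower quartile of level, 0.83 from there to the median, 0.88 from the median to the upper quartile and 0.85 above it.

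**Figure D5:**
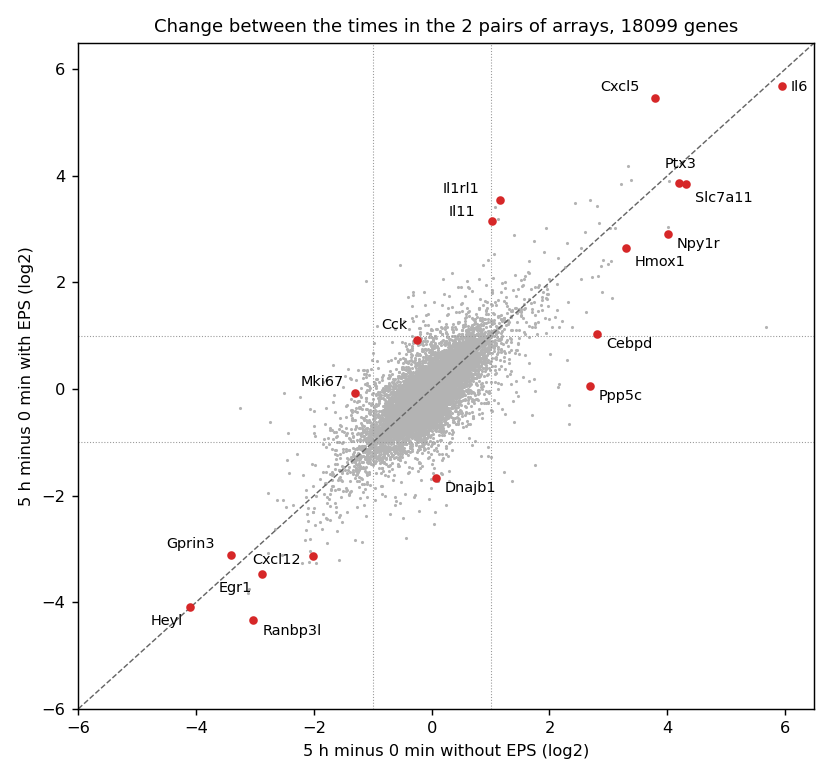
Difference between 5 h and 0 min without EPS (log2, horizontal axis) against the same difference with EPS (log2, vertical axis) for 18099 genes measured on all 4 arrays, with dotted lines at 2-fold and a dashed line of equality. Il6, Slc7a11, Ptx3 and Heyl lie near the dashed line, Cebpd and Ppp5c below it, and Il11, Il1rl1 and Cck above it.

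Where the pairs differed, named genes were of mixed kinds. The unstimulated difference exceeded that with EPS by at least 2-fold for 180 of the 18099 genes and fell short of it by as much for 181. Ppp5c, a protein phosphatase, was at -2.93 and -0.24 without EPS and at -0.28 and -0.22 with EPS. Nelfe, a subunit of the NELF complex that pauses RNA polymerase, was at -0.98 and 1.20 without EPS and at 1.20 and 1.29 with EPS. In both the unstimulated 0 min array alone was low. Apln, the apelin peptide gene, was at -1.15 and 0.08 without EPS and at -0.77 and -1.24 with EPS, so the unstimulated 5 h array was the highest. In the other direction stood Il1rl1, Il11, Cxcl5, the nuclear RNA Malat1 (1.69 and 1.07 without EPS, 0.03 and 1.16 with EPS) and the transporter gene Slco4a1 (-2.49 and -2.62, then -3.08 and -1.50). These differences of differences rest on 4 single arrays and were not tested.

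Cck, the gene of the series title, was at 3.37 and 3.12 without EPS and at 3.04 and 3.96 with EPS, so the unstimulated difference was -0.25 and the highest of the 4 levels was at 5 h after EPS. The receptor genes Cckar and Cckbr gave no spot well above background on the 4 arrays.

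Genes seen on 1 of the unstimulated arrays have a bound in place of a fold: the bright level is set against the dim spot, or against the weakest spot that counted as well above background on the dim array where that is higher. Of 738 genes above background at 5 h alone, 199 had a bound of at least 2-fold, and of 680 above background at 0 min alone, 292. Clec4d and Clec4e, C-type lectin receptors that sense fungal and mycobacterial lipids, were at least 13.5-fold and 12.5-fold higher at 5 h, at -2.31 and -2.42 on that array, and were also above background at 5 h after EPS (-1.75 and -0.69) and on neither 0 min array. Insc, an adaptor of spindle orientation, was at least 14.5-fold lower at 5 h, at -2.42 on the unstimulated and -2.40 on the stimulated 0 min array and above background on neither 5 h array. Prss43, Crnn and Htr3b had bounds of at least 10.6-fold, 10.1-fold and 9.17-fold higher without being above background at 5 h after EPS. Fscb, Klk8 and Taar8a, at least 8.65-fold, 8.51-fold and 7.17-fold lower, were above background on the unstimulated 0 min array alone.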

How the data were processed

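The 4 arrays of 1 slide carried 43020 non-control spots each, and the processed signals had a 75th percentile between 1093 and 1491.9; no spot was saturated and 112 to 141 outlier-flagged spots per array were left out. Per the file headers, the deposited spot intensities come from Agilent Feature Extraction, already background-corrected by the authors' scanner software. The deposited value table of the series equalled these intensities for 43020 of 43020 spots on each array, within 0.01%, so it is linear and unscaled; its column medians were 75.15, 64.05, 57.63 and 69.44.

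Levels on the log2 scale were computed here from the deposited intensities, minus the array's 75th percentile. Spots of a probe were averaged and the brightest probe stood for its gene. Of 39429 probes 26164 were named by accession through RefSeq (GRCm38.p6) and 13265 kept the name in the file. Probe positions are those of the array design on mm9. Python 3.11.15 and limma 3.58.1 (for the normexp alternative) were used, and the calling step was tested on simulated data. Because each group is 1 array, arrays and slide positions cannot be told apart from groups, and the number of arrays limits the precision.

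Named genes were the 15 largest differences per direction among measured genes at or above the lower quartile of level with a gene symbol, up to 5 bounds and up to 5 differences between pairs per direction, the 10 largest shared changes, list members, and Cck with its receptors. Members and lists were chosen with earlier results of these data known, and 2 lists, named in the text, were added after values were seen. Alternatives covered background correction, scaling, probe choice and the filter on dim spots.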

Additional observations from a re-analysis of the deposited data

Results flagged for a closer look

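In 5 dim features the unstimulated difference between 5 h and 0 min was at least 2-fold one way and that with EPS at least 2-fold the other way; each rests on single arrays, and the difference between the pairs was not tested. H2bfm, a histone gene, differed by 1.76 without EPS and by -1.42 with EPS, at levels of -5.62, -3.86, -4.55 and -5.97 in the order no EPS at 0 min and 5 h, then EPS at 0 min and 5 h. Rasl11b, a small GTPase gene, differed by 1.22 and -1.56. Ly6f differed by -1.11 and 2.03. The transcripts TC1724494 and ENSMUST00000103740, for which no symbol was used, differed by 1.37 and 1.01 without EPS and by -1.72 and -1.27 with EPS. All of these levels lay below the lower quartile of measured genes, which was -3.0.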

How the results depend on the processing

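No paired analysis was possible because each group is 1 array and no test was run. The 150 named or listed genes past 2-fold kept their direction under every alternative that gave a value; the filter on all 4 arrays gave one for 146 of them. The 322 higher and 547 lower genes became 185 and 226 with normexp background correction, of which 184 and 225 were the same genes; 746 and 1026 when a gene had to be well above background on at least 1 array; and 1234 and 1880 with no filter on dim genes. Genes called in both pairs, 193 higher and 294 lower, became 122 and 149 with normexp and 357 and 743 with no filter. Median centring shifted every difference by 0.13 and changed the share of calls that were higher from 37.1% (322 and 547) to 54.8% (470 and 388); quantile normalization gave 45.0% (368 and 450). With normexp 31 of the 150 fell under 2-fold, among them Il11 (0.68), Lif (0.65), Il1rl1 (0.90), S100a8 (0.77), Plk1, Top2a and Angpt2. Median centring took 16 under it, Klf2 (-0.93) and Top2a (-0.91) among them, quantile normalization 7, including Stat3 (0.98) and Tkt (0.98), and averaging a gene's probes 3, which were Lifr (-0.75), Csf1 (0.97) and Rgs2 (0.94). List medians moved by less than 0.33, the 95th percentile of the spot SD, but the small ones near 0 changed sign with the scaling: chemokines from -0.05 to 0.09, mitochondrial and lipid genes from -0.10 to 0.03 and muscle fibre markers from -0.13 to 0.01 under median centring. Of 869 called genes 101 had several measured probes; in 62 every probe reached 2-fold the same way, and in 11 a probe went the other way. Dim spots limit these results: genes below the lower quartile of level gave 110 of the 322 higher and 295 of the 547 lower calls.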

Other observations

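Gm15645, a gene model outside the naming rule and picked after its values were seen, had the second highest difference between the unstimulated arrays. It was at -4.98 at 0 min and 0.70 at 5 h without EPS, and at 0.08 and 1.25 with EPS, so the unstimulated 0 min array was low and the others were not. Fam110c, Lrp8 and Slc10a6, also picked after their values were seen and left out of the named genes by their low mean level, differed by 4.03, 4.01 and 3.06 without EPS and by 3.90, 3.05 and 1.70 with EPS. Among dim lower genes, Unc93a, Otop2 and the serotonin receptor gene Htr7 differed by -3.12, -3.10 and -2.78 without EPS and by -3.82, -3.76 and -3.08 with EPS. Trpv6, a calcium channel gene, differed by -3.26 and -0.36, with the unstimulated 0 min array high at -2.64 and the others between -5.72 and -6.08.

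Of 28 measured interferon response genes, against 1.74% higher and 2.96% lower among all genes, 1 was higher (Igtp, 1.23) and 3 lower (Ifit3 at -1.64, Oasl2 at -1.17 and Psmb8 at -1.11), with a median of -0.11. Of 15 metal handling genes the zinc importers Slc39a14 and Slc39a10 were higher by 1.32 and 1.10, and the metallothioneins Mt1 and Mt2 differed by 0.14 and 0.22. Of 25 muscle proteolysis genes 1 was called higher, and the ubiquitin ligase genes Fbxo32 and Trim63 differed by -0.61 and -0.32.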
